A study of Homo sapiens with 6 samples.

Results

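The melanosome and melanocyte differentiation genes described here are 10 named genes, PMEL, MLANA, TYRP1, GPNMB, APOE, EDNRB, MC1R, RAB27A, RAB38 and MYO5A, out of 21631 gene symbols in a table of raw RNA-seq read counts. They were taken from the table by name. The RNA came from A-375, a long-established melanoma cell line of human origin with an activating BRAF mutation. The samples were 3 libraries labelled sgSEPHS2, with a guide against SEPHS2, and 3 libraries labelled sgCTRL, with a control guide. SEPHS2 encodes the enzyme that makes selenophosphate for selenocysteine synthesis. The labels describe no treatment, time point, clone or pool, so the guide and any difference between the cells each group was grown from cannot be told apart. SEPHS2 mRNA itself was 173 ± 3.85 CPM (reads per 1e6 counted reads) in SEPHS2 guide libraries and 156 ± 3.32 CPM in control guide libraries (SD, n = 3 each), a log2 fold change of 0.15 (edgeR adjusted p = 0.00401). SEPHS2 was therefore not lower in the libraries labelled sgSEPHS2, and every direction below rests on the labels. That call was lost once a trend in exon length and GC content was removed (0.08, edgeR adjusted p = 0.0804).

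Melanosomes are lysosome-related organelles in which melanocytes make and store pigment. PMEL forms the fibrils on which melanin is laid down, MLANA assists PMEL, and TYRP1 belongs to the tyrosinase family of melanin synthesis. RAB38 brings the enzymes to the organelle, and RAB27A, through the adaptor melanophilin (MLPH), tethers the finished organelle to the motor MYO5A. The receptors MC1R, for melanocortins, and EDNRB, for endothelins, control the differentiation, survival and pigment output of the lineage. GPNMB is a glycoprotein of melanosomes and lysosomes, and APOE is a lipid carrier that in pigment cells helps PMEL form its fibrils. Many pigment genes are known targets of the transcription factor MITF, which binds a short sequence called the M-box.

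The M-box letters, TCATGTG, and their core, CATGTG, were searched on both strands in the 250 bases before each transcript start that RefSeq lists (build GRCh38.p14). Each M-box contains a core, so the searches overlap. Of the 10 genes, 8 had an entry and PMEL and RAB38 did not. The core was found for 4 of the 8, in 4 of their 15 windows, and the whole M-box for TYRP1 and GPNMB. Among all 35116 such windows, 9.42% held the core and 2.52% the M-box. These shares count windows and cannot be set against the counts of genes, for which the share over all genes was not computed. The palindromic E-box, CACGTG, was searched in the same way. It was in 6.34% of all windows and in none of the windows of the 8 genes. The sites of these 4 genes are shown because GPNMB and EDNRB are among the genes that changed and TYRP1 is the gene nearest to absence, and those of the pigment enzymes TYR and DCT because they are the textbook examples. Each line gives 30 bases on the strand of the gene, 5′ to 3′, with the core or M-box in capitals (CACATG and CACATGA are the same letters read from the other strand).
GPNMB, chr7:23246640-23246669, plus strand: gtgagtcataagCACATGAgttgtaagagg
GPNMB, chr7:23246701-23246730, plus strand: gcttaataccatCACATGAtcctccccgag
TYRP1, chr9:12693229-12693258, plus strand: ttggaagggaaTCATGTGctgatcaagtcc
TYRP1, chr9:12693362-12693391, plus strand: caggcagcaatcCACATGcacttaacagtt
EDNRB, chr13:77919816-77919845, minus strand: gctgccgggtgtCACATGgtgcgtgataac
MC1R, chr16:89918786-89918815, plus strand: tcacgcccccggCATGTGgccgccctcagt
TYR, chr11:89177759-89177788, plus strand: agaaaagtcagTCATGTGcttttcagagga
TYR, chr11:89177851-89177880, plus strand: tctcagccaagaCATGTGataatcactgta
DCT, chr13:94479880-94479909, minus strand: gtttggctggagCACATGAgcccagataaa
DCT, chr13:94479799-94479828, minus strand: tgcactttgggTCATGTGctaatgatgagg
The M-boxes of GPNMB begin 123 and 62 bases before its start, and that of TYRP1 begins 145 bases before its start. A match of letters is a description and not a measured binding site.

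The libraries held 34606145 to 43405579 counted reads in the SEPHS2 guide group and 39796984 to 41757643 in the control guide group, so 1 read was worth 0.0232 to 0.0293 CPM. As a check on the label melanoma, 6 of the 13 melanocyte lineage markers in the table averaged at least 1 CPM, SOX10 far above the rest. Markers of other cell types ranged from low, for macrophages, to a summed level above that of the melanocyte lineage, for Schwann cells. The melanocyte lineage markers summed to 633 to 660 CPM in SEPHS2 guide libraries and 683 to 710 CPM in control guide libraries. None of 6 macrophage markers averaged 1 CPM, and their sum was 0.966 to 1.25 CPM in SEPHS2 guide libraries and 1.33 to 1.88 CPM in control guide libraries. Every symbol in the table had at least 7 reads in all, so none of these 6 was at 0 throughout, and the other macrophage markers of the list were not analysed here. The 7 endothelial markers, 2 of them at 1 CPM or more, summed to 8.29 to 9.38 CPM in SEPHS2 guide libraries and 9.79 to 10.4 CPM in control guide libraries. The 3 keratinocyte markers in the table, 1 of them at 1 CPM or more, summed to 42.5 to 45.5 CPM in SEPHS2 guide libraries and 34.4 to 35.5 CPM in control guide libraries. The 7 fibroblast markers, 4 of them at 1 CPM or more, summed to 48.8 to 55.1 CPM in SEPHS2 guide libraries and 73.8 to 75.7 CPM in control guide libraries. The 8 Schwann cell markers, 7 of them at 1 CPM or more, summed to 922 to 953 CPM in SEPHS2 guide libraries and 938 to 950.3 CPM in control guide libraries. Their part in the results below was not tested.

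In SEPHS2 guide libraries EDNRB and APOE fell, to levels that the control guide group exceeded 2.66-fold and 2.83-fold, RAB38 and GPNMB rose 1.36-fold and 1.26-fold, and PMEL, MLANA, MC1R, RAB27A and MYO5A did not pass the test. TYRP1 was too low to be tested. In bulk RNA, fewer cells that express a gene and less RNA per cell cannot be told apart. A gene passed when edgeR's quasi-likelihood test, adjusted with Benjamini-Hochberg over the 16910 genes tested, gave an adjusted p under 0.05. Of the 9 genes tested, 4 passed, 44.4%, against 45.4% of all tested genes. There were 2 higher, where 22% of all tested genes were higher, and 2 lower, where 23.4% were lower. Both genes that fell did so by at least 2-fold, a size reached by 5.67% of all tested genes in that direction. The groups did not overlap for 4 of the 9, against 52.1% of all tested genes. The median log2 fold change of the 9 was 0.00, and that of all tested genes was 0.01.

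**Figure D1:**
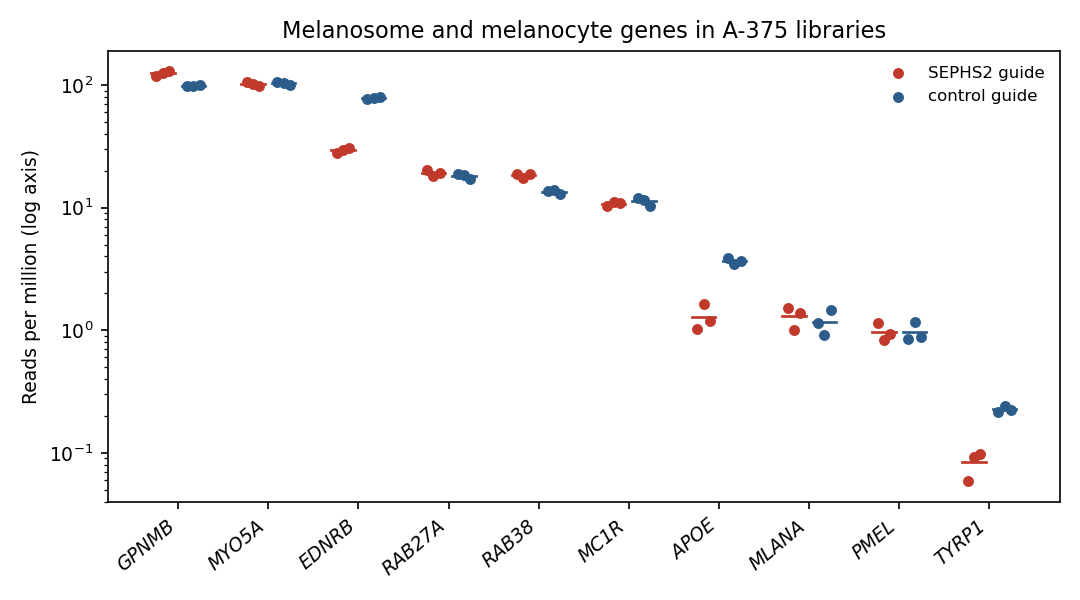
Reads per 1e6 counted reads (log axis) of the 10 genes in each library, with SEPHS2 guide libraries in red and control guide libraries in blue, and a bar at each mean. The groups stand clear of each other for GPNMB, EDNRB, RAB38, APOE and TYRP1 and overlap for the other 5 genes.

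Among the pigment structure and enzyme genes, all 3 were low. PMEL (chromosome 12, 55954105 to 55966709, protein-coding), whose product builds the melanosome fibril, had 39, 36 and 38 reads in SEPHS2 guide libraries, against 36, 48 and 35 reads in control guide libraries. The groups overlapped, at 0.972 ± 0.156 CPM in SEPHS2 guide libraries and 0.964 ± 0.172 CPM in control guide libraries (SD, n = 3 each). Its log2 fold change was 0.00, with a 95% interval of -0.58 to 0.58 (edgeR adjusted p = 0.995). Differences within that interval are not excluded at this depth.

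MLANA (chromosome 9, 5890889 to 5910606, protein-coding), the melanoma antigen also called Melan-A, had 52, 43 and 56 reads in SEPHS2 guide libraries and 48, 38 and 58 reads in control guide libraries. These groups overlapped as well, with means of 1.301 ± 0.272 CPM in SEPHS2 guide libraries and 1.17 ± 0.268 CPM in control guide libraries. Its log2 fold change was 0.14, with an interval of -0.38 to 0.67 (edgeR adjusted p = 0.682), and it was -0.00105 without control guide replicate 2. MLANA lies wholly within another protein-coding gene, listed as KIAA2026 in the table and as BRD10 in RefSeq, which had 9755 reads over the 6 libraries. Whether any of the few MLANA reads came from that gene was not tested.

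TYRP1 (chromosome 9, 12693385 to 12710285, protein-coding), known in mouse to oxidise an intermediate of black pigment, was the only member near the read floor, taken as under 20 reads in every library. PMEL and MLANA had under 60 reads in every library, and the other 7 members had a median of at least 100. It had 2, 4 and 4 reads in SEPHS2 guide libraries, against 9, 10 and 9 reads in control guide libraries. Every SEPHS2 guide library lay below every control guide library. Summed over groups and scaled to depth, 10 reads against 28 gave a ratio of 0.374, with an exact conditional binomial 95% interval of 0.162 to 0.794 that covers counting error only. TYRP1 was left out of the main test by the expression filter. With no filter it had a log2 fold change of -1.40 with a standard error of 0.70 (edgeR adjusted p = 0.132), which did not pass. The antisense gene LURAP1L-AS1 overlaps TYRP1 and had 45 reads over the 6 libraries.

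GPNMB and APOE, which macrophages also make, moved in opposite directions. GPNMB (chromosome 7, 23246775 to 23275108, protein-coding) had the highest mean of the 10 genes over all 6 libraries, though MYO5A was higher in control guide libraries. GPNMB had 4026, 5417 and 5249 reads in SEPHS2 guide libraries and 4103, 4059 and 3988 reads in control guide libraries. After scaling to depth these were 118, 126 and 130 CPM in SEPHS2 guide libraries, against 97.4, 98.3 and 99.9 CPM in control guide libraries. The groups did not overlap, and the SEPHS2 guide libraries were spread more widely. GPNMB rose 1.26-fold, with means of 124 ± 5.92 CPM in SEPHS2 guide libraries and 98.5 ± 1.29 CPM in control guide libraries (SD, n = 3 each), with the log2 fold change at 0.34 (SE 0.04, edgeR adjusted p = 2.26e-06). Of the nearest 6 tested genes on chromosome 7 none rose and 2 fell, NUP42 at -0.15 and IGF2BP3 at -0.43.

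APOE (chromosome 19, 44905796 to 44909393, protein-coding) was far lower in level, with 35, 71 and 48 reads in SEPHS2 guide libraries and 164, 144 and 147 reads in control guide libraries. All 3 SEPHS2 guide libraries lay below all 3 control guide libraries. APOE fell to 1.29 ± 0.324 CPM in SEPHS2 guide libraries, against 3.69 ± 0.202 CPM in control guide libraries (SD, n = 3 each). The log2 fold change was -1.50 (SE 0.18, edgeR adjusted p = 8.46e-07), or 2.83 times more in the control guide group. With 1 library left out the log2 fold change was -1.73 to -1.37, and the gene stayed lower in each such fit.

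The neighbours of APOE did not all move with it. APOC1, the next gene of the same apolipoprotein cluster, had 2.03 ± 0.136 CPM in SEPHS2 guide libraries and 2.51 ± 0.110 CPM in control guide libraries, with a log2 fold change of -0.30 (edgeR adjusted p = 0.15). TOMM40, a mitochondrial import pore on the other side, rose by 0.32 on the log2 scale (edgeR adjusted p = 7.44e-06). Of the nearest 6 tested genes, 1 rose and 2 fell, among them RELB, an NF-kB subunit, at -1.10. Another secreted lipid carrier, APOD, fell to 1.12 ± 0.488 CPM in SEPHS2 guide libraries, against 2.77 ± 0.730 CPM in control guide libraries (log2 fold change -1.30, edgeR adjusted p = 2.36e-04). The lipoprotein receptor gene LRP1 and the lipid exporter gene ABCA1 fell, by 0.72 and 0.26 on the log2 scale (edgeR adjusted p = 4.83e-11 and 3.53e-04). LRP8, another APOE receptor, rose by 0.30 on the log2 scale (edgeR adjusted p = 6.18e-06), and the sorting receptor gene SORT1 had -0.10 (edgeR adjusted p = 0.0865). SORT1 passed without SEPHS2 guide replicate 1 (-0.14, edgeR adjusted p = 0.0199), without control guide replicate 3 (-0.14, edgeR adjusted p = 0.0343) and among genes of at least 1 CPM in 3 libraries (-0.11, edgeR adjusted p = 0.0452). LRP8 and SORT1 were chosen after their values were seen.

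EDNRB showed the smallest adjusted p of the 10 genes. This receptor (chromosome 13, 77895487 to 77975527, protein-coding) answers endothelins and is needed for melanocytes to migrate from the neural crest. It had 956, 1276 and 1245 reads in SEPHS2 guide libraries, against 3212, 3253 and 3191 reads in control guide libraries. The groups were far apart and each was tight. EDNRB fell to 29.4 ± 1.37 CPM in SEPHS2 guide libraries, against 78.3 ± 1.91 CPM in control guide libraries (SD, n = 3 each). The log2 fold change was -1.41, SE 0.05 (edgeR adjusted p = 5.53e-15), or 2.66 times more in the control guide group. The antisense gene EDNRB-AS1 overlaps EDNRB and was not analysed here, and reads of the 2 strands cannot be told apart because the strand setting of the counting is not given.

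Most other genes on chromosome 13 were lower too. Of the 322 other tested genes on chromosome 13, 211 fell, 65.5%, against 23.4% of all tested genes, and their median log2 fold change was -0.40. EDNRB was below most of them, and 20 of the 322 had a log2 fold change as low or lower. Of the nearest 6 tested genes, 5 fell. These were SLAIN1, a microtubule regulator, at -1.55, the ubiquitin ligase MYCBP2 at -0.87, the transcription factor POU4F1 at -1.06, the ubiquitin ligase OBI1 at -0.45 and the RNA-binding protein gene RBM26 at -0.35. The remaining one, SCEL, had a value of -0.42 that did not pass (edgeR adjusted p = 0.163). Within 10 Mb on either side, 22 of 33 tested genes fell and 2 rose. The part of the chromosome in the EDNRB difference was not tested.

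**Figure D2:**
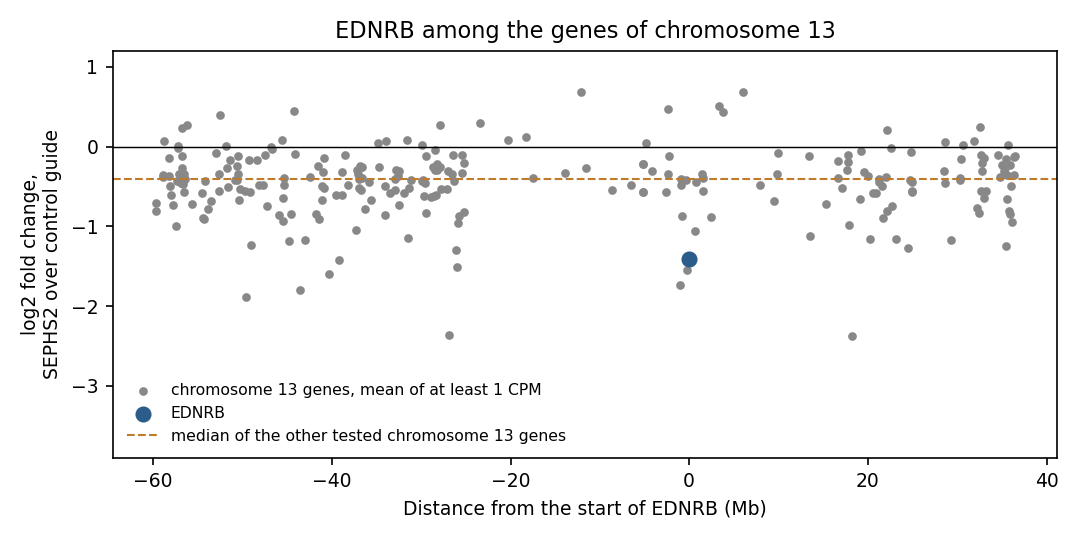
The log2 fold change (SEPHS2 guide over control guide) of chromosome 13 genes that averaged 1 CPM or more, by distance in Mb from the lower end of EDNRB, with EDNRB in blue and a dashed line at the median of the other tested genes of the chromosome. Most genes lie below 0 along the whole chromosome and EDNRB lies well below the dashed line at -0.40. Of 262 such genes, 1 lies below the axis.

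Other parts of the endothelin system were mostly near the floor. The ligand genes had few reads in all. Over the 3 SEPHS2 guide libraries EDN1 had 11 reads, EDN2 had 5 and EDN3 had 0, and over the 3 control guide libraries EDN1 had 10, EDN2 had 6 and EDN3 had 8. A count of 0 in a library allows up to 3 reads, or 0.0696 to 0.0879 CPM in SEPHS2 guide libraries. EDNRA, the other endothelin receptor, had 0.954 ± 0.305 CPM in SEPHS2 guide libraries and 1.42 ± 0.491 CPM in control guide libraries, and did not pass (log2 fold change -0.59, edgeR adjusted p = 0.102). Its value depended on single libraries. It passed without SEPHS2 guide replicate 1 (-0.85, edgeR adjusted p = 0.0355) or control guide replicate 3 (-0.79, edgeR adjusted p = 0.0387), and shrank without control guide replicate 2 (-0.29, edgeR adjusted p = 0.513) or SEPHS2 guide replicate 3 (-0.41, edgeR adjusted p = 0.318). ECE1, the protease that makes active endothelin, fell to 78.5 ± 2.21 CPM in SEPHS2 guide libraries, against 98.6 ± 1.73 CPM in control guide libraries (log2 fold change -0.33, edgeR adjusted p = 2.18e-06).

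MC1R (chromosome 16, 89918862 to 89920972, protein-coding), the receptor whose signal raises cAMP and shifts pigment from red to black, had 350, 482 and 441 reads in SEPHS2 guide libraries and 503, 475 and 413 reads in control guide libraries. The groups overlapped, at 10.8 ± 0.479 CPM in SEPHS2 guide libraries and 11.3 ± 0.822 CPM in control guide libraries (SD, n = 3 each). Its log2 fold change was -0.06, with an interval of -0.24 to 0.12 (edgeR adjusted p = 0.593). TUBB3, the tubulin gene just downstream, also did not pass, at 0.07 (edgeR adjusted p = 0.681).

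Further along the MC1R route, GNAS, which encodes the stimulatory G protein, fell to 1806 ± 84.7 CPM in SEPHS2 guide libraries, against 2795 ± 109 CPM in control guide libraries (log2 fold change -0.63, edgeR adjusted p = 2.34e-10). PRKAR1A, the regulatory subunit of the cAMP-dependent kinase, and ATRN, a cofactor of the MC1R antagonist, fell by 0.36 and 0.37 on the log2 scale (edgeR adjusted p = 2.43e-07 and 1.00e-06). The antagonist gene ASIP had 29 reads over the SEPHS2 guide group and 26 over the control guide group. KITLG, the ligand of KIT, rose to 3.57 ± 0.239 CPM in SEPHS2 guide libraries, against 1.66 ± 0.297 CPM in control guide libraries (log2 fold change 1.11, edgeR adjusted p = 1.82e-05). KIT itself had 57 reads over the SEPHS2 guide group and 63 over the control guide group (edgeR adjusted p = 0.875). In all, 7 of 15 tested genes of the receptor and signalling list passed, 46.7% against 45.4% of all tested genes. There was 1 higher, where 22% of all tested genes were higher, and 6 lower, where 23.4% were lower. The median log2 fold change was -0.10. GNAS, PRKAR1A, ATRN and KITLG are named here for their small adjusted p, and 8 of the 15 did not pass.

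Of the 3 transport genes, RAB38 alone passed in the main test. RAB38 (chromosome 11, 87803715 to 88175443, protein-coding), the small GTPase that steers TYR and TYRP1 to melanosomes, had 641, 750 and 769 reads in SEPHS2 guide libraries, against 580, 572 and 513 reads in control guide libraries. These were 18.8, 17.4 and 19.0 CPM in SEPHS2 guide libraries and 13.8, 13.9 and 12.9 CPM in control guide libraries, with no overlap. RAB38 rose 1.36-fold, and its log2 fold change was 0.45 (SE 0.07, edgeR adjusted p = 2.33e-05). Of its nearest 6 tested genes, 2 rose, the lysosomal protease gene CTSC at 0.15 and the oxidase gene NOX4 at 0.38. Its close relative RAB32, which shares the task, had 11.2 ± 0.450 CPM in SEPHS2 guide libraries and 10.3 ± 1.46 CPM in control guide libraries, with a log2 fold change of 0.13 and an interval of -0.08 to 0.33 (edgeR adjusted p = 0.316). Whether the changes of these paralogs differ was not tested.

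RAB27A (chromosome 15, 55202966 to 55319123, protein-coding) had 697, 778 and 778 reads in SEPHS2 guide libraries and 788, 756 and 677 reads in control guide libraries. The groups overlapped, at 19.2 ± 1.18 CPM in SEPHS2 guide libraries and 17.99 ± 0.912 CPM in control guide libraries (SD, n = 3 each). Its log2 fold change was 0.09, with an interval of -0.05 to 0.23 (edgeR adjusted p = 0.287). The gene PIGBOS1 lies within its span and had 2081 reads over the 6 libraries. The paralog RAB27B rose to 4.49 ± 0.312 CPM in SEPHS2 guide libraries, against 1.93 ± 0.536 CPM in control guide libraries (log2 fold change 1.22, edgeR adjusted p = 8.72e-06).

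MYO5A (chromosome 15, 52307283 to 52529050, protein-coding), the motor that carries melanosomes along actin, had 3636, 4371 and 4001 reads in SEPHS2 guide libraries and 4498, 4314 and 4020 reads in control guide libraries. It was nearly level between the groups, at 102 ± 3.94 CPM in SEPHS2 guide libraries and 104 ± 3.04 CPM in control guide libraries (SD, n = 3 each). The log2 fold change was -0.03, with an interval of -0.12 to 0.07 (edgeR adjusted p = 0.685). After removal of a trend in exon length and GC content, its sign turned and it passed narrowly, at 0.10 (edgeR adjusted p = 0.0424). Of its paralogs, MYO5C rose by 0.57 on the log2 scale (edgeR adjusted p = 1.63e-04) and MYO5B had 0.24 (edgeR adjusted p = 0.588). Of 17 tested relatives and neighbours of the members in all, 4 rose and 5 fell, 52.9% against 45.4% of all tested genes.

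**Figure D3:**
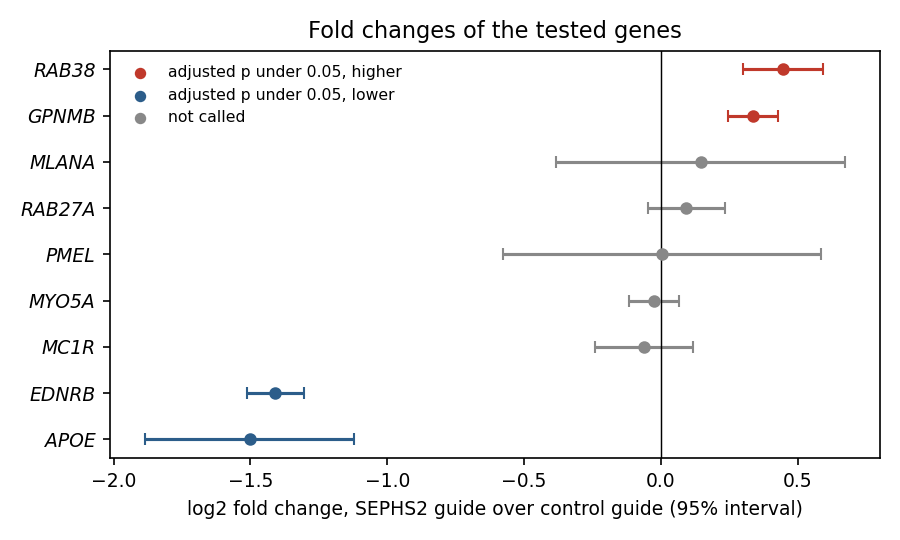
Log2 fold change (SEPHS2 guide over control guide) of the 9 tested genes, with 95% intervals from edgeR. RAB38 and GPNMB lie above 0 and EDNRB and APOE well below, while the intervals of the other 5 genes include 0 and those of PMEL and MLANA are the widest.

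Per kilobase of exon (the merged exons of GENCODE release 29), the order of levels differed between the groups in the place of EDNRB. In SEPHS2 guide libraries GPNMB stood first at 20.6 ± 0.980 CPM per kilobase, before RAB38 at 12.6 ± 0.580, MYO5A at 7.87 ± 0.303 and EDNRB at 5.25 ± 0.244. In control guide libraries GPNMB at 16.3 ± 0.213 CPM per kilobase was followed by EDNRB at 14.0 ± 0.340, and then by RAB38 at 9.21 ± 0.378 and MYO5A at 8.005 ± 0.234. With these lengths, RAB27A, MC1R, APOE, MLANA, PMEL and TYRP1 followed in that order in both groups. The merged exons of MC1R, 5.566 kilobases, are longer than its whole RefSeq span of 89918862 to 89920972. A shorter length would raise its value per kilobase. As the annotation used for counting was not given, the place of MC1R in this order is uncertain. The ranges of libraries overlapped for 1 pair of neighbours in this order, APOE and MLANA in SEPHS2 guide libraries, at 0.587 ± 0.148 and 0.422 ± 0.0881 CPM per kilobase. TYRP1 closed the order at 0.0223 ± 0.00579 CPM per kilobase in SEPHS2 guide libraries and 0.0607 ± 0.00384 in control guide libraries.

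Of a wider list of 65 genes of pigment cells and their organelles, 63 were in the table. Of the 58 tested, 11 rose and 11 fell, 37.9% against 45.4% of all tested genes, and the median log2 fold change was 0.01 in the list and 0.01 over all tested genes. In this list TYR, DCT, OCA2 and SLC45A2 were near the floor, as TYRP1 was. TYR, the first enzyme of melanin synthesis, had 6, 0 and 4 reads in SEPHS2 guide libraries and none in control guide libraries. DCT had 0, 0 and 2 reads in SEPHS2 guide libraries, against 5, 2 and 6 reads in control guide libraries, and OCA2 had 0 reads over the SEPHS2 guide group and 8 over the control guide group. SLC45A2, a melanosome transporter, had 18, 17 and 17 reads in SEPHS2 guide libraries, against 8, 2 and 15 reads in control guide libraries, and did not pass (log2 fold change 1.12, edgeR adjusted p = 0.0924). It passed without control guide replicate 3 (1.86, edgeR adjusted p = 0.0188) and with limma-voom (1.44, adjusted p = 0.0335). It had 0.65 without control guide replicate 2 (edgeR adjusted p = 0.356) and 0.99 without SEPHS2 guide replicate 1 (edgeR adjusted p = 0.202).

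Within the list, 6 of 12 tested genes for transport and docking passed, 3 higher and 3 lower, 50% against 45.4% of all tested genes. They include partners of RAB27A. MLPH, which links RAB27A to MYO5A, had 28, 46 and 28 reads in SEPHS2 guide libraries and 47, 41 and 40 reads in control guide libraries (log2 fold change -0.27, edgeR adjusted p = 0.475). SYTL2, a RAB27 effector that docks granules at the membrane, rose to 22.4 ± 0.346 CPM in SEPHS2 guide libraries, against 12.8 ± 1.25 CPM in control guide libraries (log2 fold change 0.81, edgeR adjusted p = 9.50e-09). SYTL5, a related effector, fell to 195 ± 16.7 CPM in SEPHS2 guide libraries, against 281 ± 9.79 CPM in control guide libraries (log2 fold change -0.53, edgeR adjusted p = 3.12e-08). RAB17, linked to melanosome release in mouse cells, fell by 0.60 on the log2 scale (edgeR adjusted p = 2.33e-04).

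Of 12 tested genes grouped as enzymes, transporters and other membrane proteins, 3 rose and 3 fell, again 50% against 45.4%. Not all of them encode parts of the organelle itself. SLC7A11, a cystine transporter of the plasma membrane, rose by 0.52 on the log2 scale (edgeR adjusted p = 8.86e-08). It had 213 ± 18.9 CPM in SEPHS2 guide libraries and 148 ± 6.96 CPM in control guide libraries. The tetraspanin CD63 rose by 0.22 on the log2 scale (edgeR adjusted p = 1.69e-04). ATP7A, which loads copper onto tyrosinase, fell by 0.39 on the log2 scale (edgeR adjusted p = 6.20e-06). Of 34 tested genes for the complexes that sort cargo to melanosomes, 5 rose and 5 fell, 29.4% against 45.4% of all tested genes, and none of the changes reached 2-fold. HPS5 of the BLOC-2 complex, AP3S1 of the AP-3 adaptor and BLOC1S2 of the BLOC-1 complex rose by log2 fold changes of 0.29, 0.26 and 0.25 (edgeR adjusted p = 1.71e-05, 5.83e-05 and 4.86e-04). These 3 roles were assigned after the values had been seen.

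**Figure D4:**
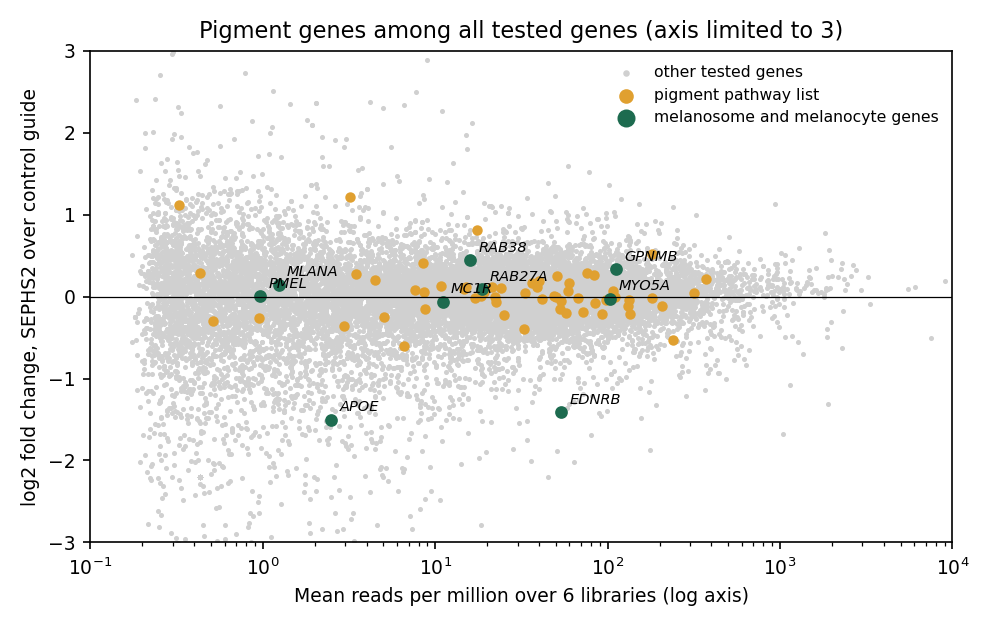
Log2 fold change (SEPHS2 guide over control guide) against mean CPM over the 6 libraries (log axis) for all tested genes in grey, the wider pigment list in orange and the 9 tested melanosome and melanocyte genes in green. EDNRB and APOE lie low in the cloud and the other 7 close to 0, with 155 genes beyond the limit of 3 on the vertical axis.

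Of 15 transcription factors listed for melanocytes, all tested, none rose, against 22% of all tested genes, and 10 fell, 66.7% against 23.4%. Some of the 15 act in many cell types. The list was chosen with earlier results of these data known, so these shares are a description and were not tested. The largest change was that of TFAP2B, a relative of TFAP2A, which had 2, 0 and 6 reads in SEPHS2 guide libraries, against 1732, 1719 and 1695 reads in control guide libraries (log2 fold change -9.20, edgeR adjusted p = 3.23e-19). With so few reads the size rests on single libraries, at -10.49 without SEPHS2 guide replicate 3 and -8.56 without SEPHS2 guide replicate 2. TFAP2B was chosen after its values were seen. MITF fell to 18.5 ± 0.668 CPM in SEPHS2 guide libraries, against 23.5 ± 1.295 CPM in control guide libraries (log2 fold change -0.35, edgeR adjusted p = 1.24e-04). Its relatives had separate values, with TFEB at -0.82 (edgeR adjusted p = 0.00241) and TFE3 at -0.03 (edgeR adjusted p = 0.638). TFAP2A fell by 0.31 on the log2 scale (edgeR adjusted p = 0.00261), and PAX3 had 0.02 (edgeR adjusted p = 0.866). SOX10 had 569 ± 12.98 CPM in SEPHS2 guide libraries and 619 ± 15.6 CPM in control guide libraries, a log2 fold change of -0.12 (edgeR adjusted p = 0.0164). That call was lost without SEPHS2 guide replicate 3 (edgeR adjusted p = 0.0502), control guide replicate 1 (edgeR adjusted p = 0.0661) or control guide replicate 2 (edgeR adjusted p = 0.0592). It was also lost after removal of that trend in length and GC (-0.04, edgeR adjusted p = 0.382).

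For the most abundant members, the genes with the nearest pattern were looked up among the 11328 genes that averaged 5 CPM or more. Likeness was the root mean square difference of centred log2 CPM over the 6 libraries. The nearest to GPNMB were MIEN1 at 0.0176, the long noncoding RNA PVT1 at 0.0207 and SNX10, a sorting nexin of endosomes, at 0.0221. The nearest to MYO5A were PPAT at 0.0104, VEZF1 at 0.0134 and GATAD2A at 0.0138, whose levels, like that of MYO5A, were nearly equal between the groups.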

How the data were processed

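The values are raw counts of reads by gene symbol, in 1 table that the authors deposited. The submitters' processing notes name HISAT2 2.2.1, featureCounts 2.0.6, SAMtools 1.21 and FastQC 0.12.1, with build GRCh38. The annotation, the strand setting and any gene filter were not given in the sources used here. Groups and replicate numbers come from the titles, and whether replicates were separate cultures is not stated. The p-values therefore reflect only how these 6 samples varied, and that variation may be technical. Replicates differed by more than counting noise. The groups were compared unpaired.

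The test was that of edgeR 4.0.16 on R 4.3.3 (TMM factors, default expression filter, quasi-likelihood test, two-sided, Benjamini-Hochberg over 16910 genes, 4721 left out by the filter). CPM use TMM-scaled totals, and fold changes are SEPHS2 guide over control guide. Intervals cover 95%. The procedure was run on simulated data with far fewer changed genes than were called here, so that run does not cover differences as broad as these. Positions are RefSeq GRCh38.p14, which matched 21258 of 21631 symbols, and no member had the counts of another symbol. Exon lengths are from GENCODE release 29. Alternatives were upper-quartile and RLE factors, all genes unfiltered, limma-voom 3.58.1, DESeq2 1.42.0, a minimum of 1 CPM in 3 libraries, the replicate block, each library left out, an adjusted p under 0.01, and a trend in exon length and GC content removed (mgcv 1.9.3, 90.2% of tested genes).

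The members and lists were chosen with earlier results of these data known. The genes named are all 10 members, the 10 called genes of the wider pigment list with the smallest adjusted p among those with a mean of at least 1 CPM, with TYR, DCT, OCA2, SLC45A2, MLPH and RAB32, set signalling partners and the 4 others with the smallest adjusted p, set paralogs and factors, the nearest 3 tested genes on each side of a member, and the 3 genes nearest in pattern to the 2 most abundant members. Of the neighbours, those of members that passed are named in part. SLC24A5, TRPM1 and POMC were not analysed here. One gene that the naming rule covers is not reported here. Figures were drawn with matplotlib 3.10.9.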

Additional observations from a re-analysis of the deposited data

How the results depend on the processing

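The 4 members that passed kept their calls and directions under all 15 alternatives, with log2 fold changes of 0.31 to 0.37 for GPNMB, 0.30 to 0.49 for RAB38, -1.73 to -1.37 for APOE and -1.47 to -1.38 for EDNRB. With the length and GC trend removed, MYO5A turned to 0.10 and passed, MC1R turned to 0.0188 and TFE3 to 0.0172. In that fit the sizes of other named genes moved both ways. The falls of GNAS, LRP1, ECE1 and ABCA1 shrank to -0.39, -0.43, -0.21 and -0.14. The rises of LRP8 and SYTL2 grew to 0.41 and 0.91, and all of these genes still passed. The cause of these shifts was not tested. PMEL, near 0, turned to -0.00299 with RLE factors, -0.00333 with upper-quartile factors, -0.00157 with DESeq2, -0.00197 with limma-voom and -0.00782 with the trend removed. With 1 library left out, values spanned -0.12 to 0.16 for PMEL, -0.00105 to 0.32 for MLANA, -0.0541 to 0.000711 for MYO5A, -0.73 to 0.26 for KIT, -0.0307 to 0.0412 for PAX3 and -0.0505 to 0.00659 for TFE3. The number of called genes was 7084 of 15258 with the trend removed, 7134 with DESeq2, 5863 at an adjusted p under 0.01 and 6339 to 7411 with 1 library left out, lowest without control guide replicate 1, against 7673 of 16910. With the trend removed the wider pigment list split into 16 higher and 8 lower, against 11 and 11. Deviations of same-numbered libraries of the groups had correlations of 0.00998, -0.0931 and -0.254. Those of libraries with unlike numbers ranged from -0.251 to 0.296. With 3 libraries per group, such values cannot show whether the numbers pair the libraries. With the replicate block 7774 genes, 4 members and 22 genes of the pigment list were called. Depth limits PMEL and MLANA, whose intervals are the widest of the members, and TYRP1, which could not be fitted after the filter.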
